A study of Homo sapiens with 6 samples.

Results

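The proteasome genes were taken as the genes whose symbol is PSMA, PSMB, PSMC, PSMD, PSME, PSMF or PSMG followed by a number, without PSMB8 and PSMB9. The rule found 46 of the 59074 genes listed, and 44 of them had a mean of at least 1 CPM (reads scaled to a common library total, as deposited) over the libraries. They were the 7 alpha and 7 beta subunits of the core particle, PSMB10 as an induced beta subunit, 9 subunits of the base and 8 of the lid of the regulatory particle, 4 activator genes, the inhibitor PSMF1 and 7 assembly chaperones. PSMA8 and PSMB11, which encode core subunits known from testis and thymus, were the other members.

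RNA was sequenced from the established human glioblastoma lines U251, T98G and LN-229, 72 h after lipofection of pools of small interfering RNAs. The pool was a non-target control (siControl) or was directed against the long non-coding RNA HOTAIRM1 (siHOTAIRM1), and all 6 samples were transfected. Each line gave 1 library per condition, so that the 3 lines were the replicates of the knock-down, and a change within a single line has no replicate check. The titles spell LN-229 as LNT229.

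The proteasome degrades proteins that carry chains of ubiquitin. Its barrel-shaped core particle has rings of alpha subunits at the ends, which gate the entry, and rings of beta subunits in the middle, of which PSMB5, PSMB6 and PSMB7 carry the protease sites. In the regulatory particle, the ATPases of the base unfold the substrate and feed it into the core, and the lid removes the ubiquitin chain. PSME1 to PSME4 encode other caps that open the core, and chaperones help to assemble core and base. Upon interferon signalling PSMB8, PSMB9 and PSMB10 replace the constitutive protease subunits. The transcription factor NFE2L1 is known to raise many of these genes together when proteasome activity is low.

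The libraries held 52.3 to 104 M reads, and HOTAIRM1 was lower by 52.2% (LN-229), 38.5% (T98G) and 51.1% (U251). The median change of the 14294 genes tested on the log2(CPM + 1) scale, siHOTAIRM1 minus siControl, was 0.01, -0.19 and -0.03 in LN-229, T98G and U251. The listed genes summed to 47.0% and 48.5% of the full CPM scale in LN-229, to 50.2% and 42.9% in T98G and to 67.2% and 55.9% in U251 (siControl and siHOTAIRM1), and the part of this in the changes given here was not tested. The proteasome genes made up 0.482 to 0.576% of the listed sum, with the lower value after knock-down in each line. Of 6 markers of blood and vessel cells, summing to 1.26 and 1.21, 8.73 and 3.49, and 1.36 and 0.580 CPM in LN-229, T98G and U251 (siControl and siHOTAIRM1), 5 were under the filter, among them PTPRC, CD3E and AIF1 at 0.0870 CPM or less. The vessel markers PECAM1 and VWF, also under the filter, were at most 0.523 and 0.362 CPM. The marker above the filter was CD68, a lysosomal protein that marks macrophages. It was at 0.785 and 0.801, 7.80 and 2.72, and 1.06 and 0.324 CPM. CD68 passed the test as lower (-0.62, SE 0.15, limma adjusted p = 0.0223). This call was lost without T98G, with rescaling, with centring and with no filter. It was also lost with no cell line block and with the paired statistic of each gene alone. The part of CD68 in the results was not tested. The glioma markers NES and SOX2 were at most 0.956 and 0.0146 CPM in T98G. FABP7, GFAP and OLIG2, from the same marker list, were at most 0.0138, 0.0551 and 0.956 CPM there. The other markers of the list, VIM, EGFR, PDGFRA, CD44 and SPARC, were at 403, 171, 38.4, 780 and 856 CPM in the T98G siControl library. In such bulk RNA, fewer cells of a kind and less RNA per cell cannot be told apart.

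After the knock-down, the core subunit PSMA3 and the induced beta subunit PSMB10 were lower over the 3 lines, and the largest decreases were found in U251. PSMA3 encodes an alpha subunit. It was at 37.5 CPM in siControl and 33.5 in siHOTAIRM1 in LN-229, at 32.6 and 21.5 in T98G, and at 58.7 and 28.5 in U251. The siHOTAIRM1 library was the lower of its pair in all 3 lines, but the LN-229 level after knock-down was above the control level of T98G. Over the lines the log2 change was -0.59 (SE 0.15, limma adjusted p = 0.0350).

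PSMB10 encodes the subunit that takes the place of PSMB7 in the immunoproteasome. It was at 3.01 and 2.70 CPM in LN-229 (siControl and siHOTAIRM1), at 17.9 and 11.6 in T98G, and at 24.1 and 10.8 in U251. The levels decreased by 10.4%, 35% and 55.3%, and the log2 change over the lines was -0.60 (SE 0.16, limma adjusted p = 0.0392). In LN-229, the 95% interval of the log2 ratio from counting error was -0.40 to 0.08 and included 0, whereas in T98G (-0.75 to -0.49) and U251 (-1.28 to -1.05) it did not.

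With this threshold 2 of the 44 members passed the test as lower and 0 as higher, while 1.59% of all genes tested were called lower. An unadjusted p under 0.05 with a lower level was reached by 18 of 44 members (40.9%) and by 14.2% of all genes. Of the members, 35 (79.5%) were lower in all 3 lines against 28.1% of all genes. The call of both genes was lost without T98G or without U251, when each library was centred on its median, when CPM were rescaled to the listed genes and when genes at low levels were kept. It was also lost without the cell line block and with the paired statistic of each gene alone. With rescaling, the log2 changes of PSMA3 were -0.21, -0.37 and -0.76 and those of PSMB10 were -0.18, -0.38 and -0.86 in LN-229, T98G and U251, so that both genes stayed lower in every line.

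The sequences before the starts of both genes are shown with that of PSMD3, a lid subunit whose level was not lower in U251, so that members with unlike changes can be set side by side. They are the 100 bases before the RefSeq gene start (GRCh38.p14), 5′ to 3′ on the strand of the gene. Capitals mark a CCAAT box (CCAAT), the core of the antioxidant response element (TGACNNNGC), to which NFE2L1 and its relatives bind, and the core of the interferon response element (GAAANNGAA), each searched on both strands. PSMA3 lies on the plus strand (chr14:58244743-58244842), PSMB10 on the minus strand (chr16:67936851-67936950) and PSMD3 on the plus strand (chr17:39980707-39980806).
PSMA3: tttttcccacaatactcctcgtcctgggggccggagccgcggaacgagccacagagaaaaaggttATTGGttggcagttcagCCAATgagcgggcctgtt
PSMB10: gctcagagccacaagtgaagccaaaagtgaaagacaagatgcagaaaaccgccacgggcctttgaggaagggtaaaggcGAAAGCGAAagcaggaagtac
PSMD3: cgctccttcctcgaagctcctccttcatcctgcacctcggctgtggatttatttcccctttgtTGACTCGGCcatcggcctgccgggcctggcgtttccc

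PSMA3 held CCAAT boxes in both orientations, PSMB10 a match to the interferon element and PSMD3 a match to the antioxidant element. Promoters of 300 bases (250 before to 50 after the start) were matched for 40 of the 46 members. The antioxidant element core was found in 12 of the 40 member promoters (30%), in 15.1% of the promoters of genes tested and in 13.6% of all promoters in the table. It was found in 3 of 4 activator, 4 of 6 assembly, 2 of 8 base and 2 of 8 lid promoters, in 1 of 4 core beta promoters and in 0 of 6 core alpha promoters. The members with this core had log2 changes in U251 from -0.54 (PSMB3) to 0.10 (PSMD3). PSMD11, with the highest log2 change of any member in U251 (0.11), held no match to any of the motifs marked here. PSMD3 was picked by its change, and a link of the motifs with the changes was not tested. The CCAAT box was found in 18 of 40 (45%), 37.4% and 35.7% of the same promoters. The interferon element core was searched after the PSMB10 sequence had been seen. It was found in 7 of 40 (17.5%), namely in PSMA4, PSMB4, PSMB10, PSMC2, PSME1, PSME2 and PSMG4, against 6.55% of the promoters of genes tested and 8.29% of all. A match to such letters is a description of the sequence and does not show that a factor binds there.

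Of the groups of constitutive genes, the alpha ring showed the largest median decrease in T98G and U251. Its 7 genes, PSMA1 to PSMA7, were lower in all 3 lines, with a median log2 change of -0.11 (LN-229), -0.52 (T98G) and -0.79 (U251). With rescaling to the listed genes these medians were -0.16, -0.30 and -0.53. In U251, PSMA6 was at 101 CPM with siControl and 48.7 with siHOTAIRM1 (log2 change -1.03), PSMA4 at 159 and 81.4 (-0.95) and PSMA2 at 143 and 82.2 (-0.79). PSMA1 had the smallest difference of the alpha genes in U251 (92.7 and 73.7 CPM, -0.33). In T98G the alpha genes were closer to each other, between -0.60 (PSMA5) and -0.38 (PSMA1). In LN-229 they lay between -0.16 (PSMA3) and -0.04 (PSMA7).

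An unadjusted p under 0.05 with a lower level was reached by 6 of the 7 alpha genes, against 14.2% of all genes. PSMA3, 1 of them, passed the adjusted threshold, against 1.59% of all genes called lower. PSMA4 and PSMA6 were next to it, with log2 changes over the lines of -0.55 (SE 0.16, limma adjusted p = 0.0560) and -0.54 (SE 0.16, limma adjusted p = 0.0604). Summed over the ring, the alpha genes went from 490.0 to 457 CPM in LN-229, from 600.3 to 424 in T98G and from 816 to 483 in U251. These sums were lower by 6.69%, 29.4% and 40.8%. In CPM as deposited, the summed level of U251 was the highest of the lines with siControl. The 3 summed levels after knock-down lay within 424 to 483 CPM. The listed genes summed to 47.0% (LN-229), 50.2% (T98G) and 67.2% (U251) of the full scale with siControl, and these sums were not rescaled.

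The beta ring had a smaller median difference than the alpha ring in U251. Its 7 constitutive genes, PSMB1 to PSMB7, were lower in all 3 lines, with a median log2 change of -0.07, -0.48 and -0.37 in LN-229, T98G and U251 (-0.11, -0.26 and -0.11 with rescaling). Of the protease subunits, PSMB5, which encodes the chymotrypsin-like site, was at 65.5 and 63.9 CPM in LN-229 (siControl and siHOTAIRM1), 45.1 and 32.0 in T98G and 92.4 and 75.6 in U251. PSMB6, which encodes the caspase-like site, was at 31.7 and 27.3, 62.3 and 43.4, and 66.3 and 53.3 CPM in the same libraries. PSMB7, which encodes the trypsin-like site, was at 52.1 and 49.2, 57.1 and 36.4, and 74.5 and 53.6 CPM.

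Each of these 3 genes was lower with siHOTAIRM1 in each line, and none passed the test. Their log2 changes over the lines were -0.27 (SE 0.15) for PSMB5, -0.34 (SE 0.14) for PSMB6 and -0.39 (SE 0.15) for PSMB7, with limma adjusted p = 0.330, 0.191 and 0.142. The decrease of PSMB7 in T98G (-0.64) was the largest of any member in that line. PSMB2 in U251 was at 70.5 CPM with siControl and 70.4 CPM with siHOTAIRM1, whereas in T98G it was at 75.6 and 54.9 CPM. Summed over the 7 genes, the beta ring was lower by 4.75% (LN-229), 28.4% (T98G) and 22.9% (U251).

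In the base of the regulatory particle, PSMC1 to PSMC6 encode the ATPases, PSMD1 and PSMD2 scaffold subunits, and PSMD4 a receptor for ubiquitin. The base genes had a median log2 change of -0.13, -0.42 and -0.17 in LN-229, T98G and U251 (-0.18, -0.20 and 0.09 with rescaling), and 0 of 9 passed the test. PSMC2 had the lowest value of the base in U251, with 112 and 75.0 CPM (-0.58), whereas PSMD2 was at 219 and 222 CPM (0.02). In T98G, PSMC4 was at 58.0 CPM with siControl and 37.6 with siHOTAIRM1 (-0.61). PSMC4 in U251 was at 100.3 and 91.4 CPM (-0.13), and in LN-229 at 76.2 and 69.0 CPM (-0.14). In T98G all 9 base genes were lower, 8 of them by at least 0.32 on the log2 scale, and in U251 2 of 9 were lower by that amount. Of all genes, 79.3% were lower in T98G, and 28.4% (T98G) and 22.1% (U251) were lower by at least that amount. In U251 the base was thus near the share of all genes.

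The lid genes, among them PSMD14, which encodes the enzyme that cuts off the ubiquitin chain, had a median log2 change of -0.07 (LN-229), -0.35 (T98G) and -0.25 (U251), or -0.11, -0.13 and 0.01 with rescaling, and 0 of 8 passed the test. The lid held the 2 members with the highest log2 change in U251. PSMD11 was at 102 CPM with siControl and 111 with siHOTAIRM1 (0.11), and PSMD3 at 80.5 and 86.1 CPM (0.10). Both genes were lower in the other lines, PSMD11 at 94.9 and 90.4 CPM in LN-229 and at 98.8 and 81.6 CPM in T98G. PSMD3 was at 53.6 and 50.8 CPM in LN-229 and at 99 and 77.6 CPM in T98G. PSMD8 had the largest decrease of the lid in T98G (-0.48) and U251 (-0.49).

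**Figure D1:**
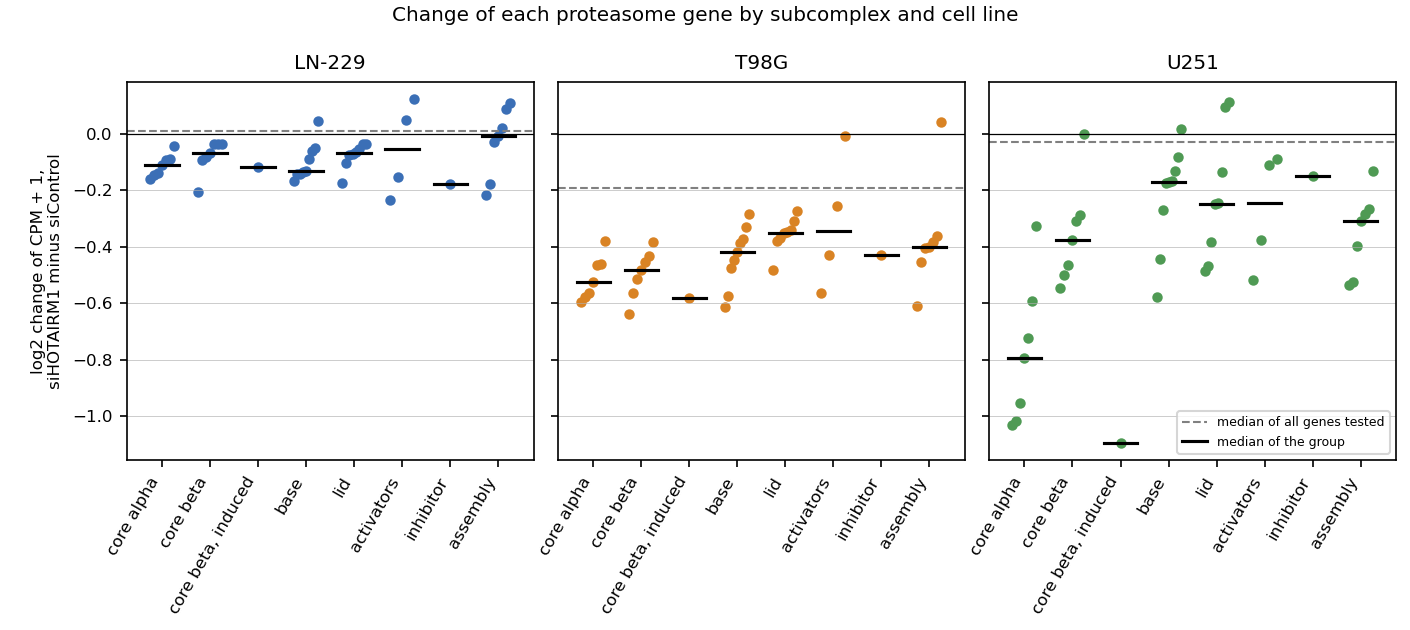
Each point is the log2 change of CPM + 1 (vertical axis, siHOTAIRM1 minus siControl) of 1 proteasome gene, by subcomplex (horizontal axis) and cell line (panels, 1 library per condition). Black bars mark the median of a group and the dashed line the median of all genes tested (0.01, -0.19 and -0.03). The 7 alpha genes of the core lie between -1.03 and -0.33 in U251, and the 17 genes of base and lid lie between -0.58 and 0.11, while with rescaling the U251 medians of base, lid and activators are above 0 (0.09, 0.01 and 0.02).

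The distance between the core and the regulatory particle was largest in U251. The median of the 14 constitutive core genes against that of the 17 genes of base and lid was -0.09 and -0.07 in LN-229, -0.50 and -0.37 in T98G and -0.52 and -0.17 in U251. Summed CPM of the core were lower by 5.72%, 28.9% and 32.5%, and those of base and lid by 6.26%, 24.5% and 12.6%. With 1 library per condition, the difference between the lines was not tested. The order of core and regulatory particle in U251 was kept with rescaling to the listed genes, but the medians of base (0.09), lid (0.01) and activators (0.02) then lay above 0 in U251, and 28 instead of 41 members were lower in this line.

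The activators fell into a pair that was lower in every line and a pair that was not, in CPM as deposited. PSME1 and PSME2 encode the subunits of the interferon-induced cap PA28. PSME1 was at 27.3 and 24.5 CPM in LN-229 (siControl and siHOTAIRM1), at 24.8 and 18.2 in T98G and at 38.4 and 29.4 in U251. PSME2 was at 23.3 and 19.6, 33.6 and 22.5, and 41.1 and 28.4 CPM, and its decrease in LN-229 (-0.24) was the largest of any member in that line. The log2 change of PSME2 over the lines was -0.44 (SE 0.14, limma adjusted p = 0.0900).

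PSME3 encodes a nuclear cap. It was at 39.8 and 43.5 CPM in LN-229, where its log2 change of 0.12 was the highest of any member, at 35.9 and 29.9 in T98G and at 70.2 and 64.9 in U251. PSME4, which encodes the cap PA200, was at 95.5 and 98.8, 76.7 and 76.4, and 119 and 112 CPM. Both had log2 changes over the lines near 0 (-0.08 and -0.02), with SE 0.14 and 0.15. The sign of both turned with rescaling to the listed genes (0.07 and 0.13). PSMF1, the inhibitor of the core, was at 28.5 and 25.2, 54.8 and 40.4, and 29.2 and 26.2 CPM (log2 change over the lines -0.25, SE 0.14, limma adjusted p = 0.344).

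The assembly chaperones had a median log2 change of -0.01, -0.40 and -0.31 in LN-229, T98G and U251 (-0.05, -0.19 and -0.05 with rescaling), and 0 of 7 passed the test. PSMG1 and PSMG2 act as a pair in building the alpha ring. PSMG1 was at 11.9 and 10.4 CPM in LN-229, 19.5 and 12.4 in T98G and 22.5 and 15.2 in U251, and PSMG2 was at 11.1 and 9.39, 13.7 and 9.72, and 20.3 and 13.9 CPM. PSMG4, a further chaperone of the core, was at 11 and 11.7, 11.4 and 11.8, and 12.5 and 11.3 CPM, and was the only member not lower in T98G in CPM as deposited. PSMD9, a chaperone of the base, was at 16.8 and 18.2 CPM in LN-229 (0.11) and was lower in T98G (12.3 and 9.07) and U251 (19.8 and 16.3).

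Counted by line, 0 of 44 members were lower by at least 0.32 on the log2 scale in LN-229 (3.23% of all genes), 38 (86.4%) in T98G (28.4% of all genes) and 22 (50.0%) in U251 (22.1% of all genes). No member was higher by that amount in any line, while 741, 296 and 2163 of all genes were. After the all-gene median of the line was subtracted, 12 members were lower by this amount in T98G (7.49% of all genes) and 21 in U251 (20.4% of all genes). The median of the members was -0.08 (LN-229), -0.43 (T98G) and -0.32 (U251), which gives -0.28 ± 0.18 (SD, n = 3), and -0.21 ± 0.10 relative to that of all genes. With rescaling it was -0.13, -0.21 and -0.06 in LN-229, T98G and U251, and -0.13 over the lines. The 95% counting interval of the ratio lay below 0 for 29, 42 and 40 members in LN-229, T98G and U251, respectively, and above 0 for 3, 0 and 2 members. It was not computed for all genes, of which 46.3%, 79.3% and 53.2% were lower by any amount in these lines. These intervals cover counting error only and were not centred on the all-gene median.

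**Figure D2:**
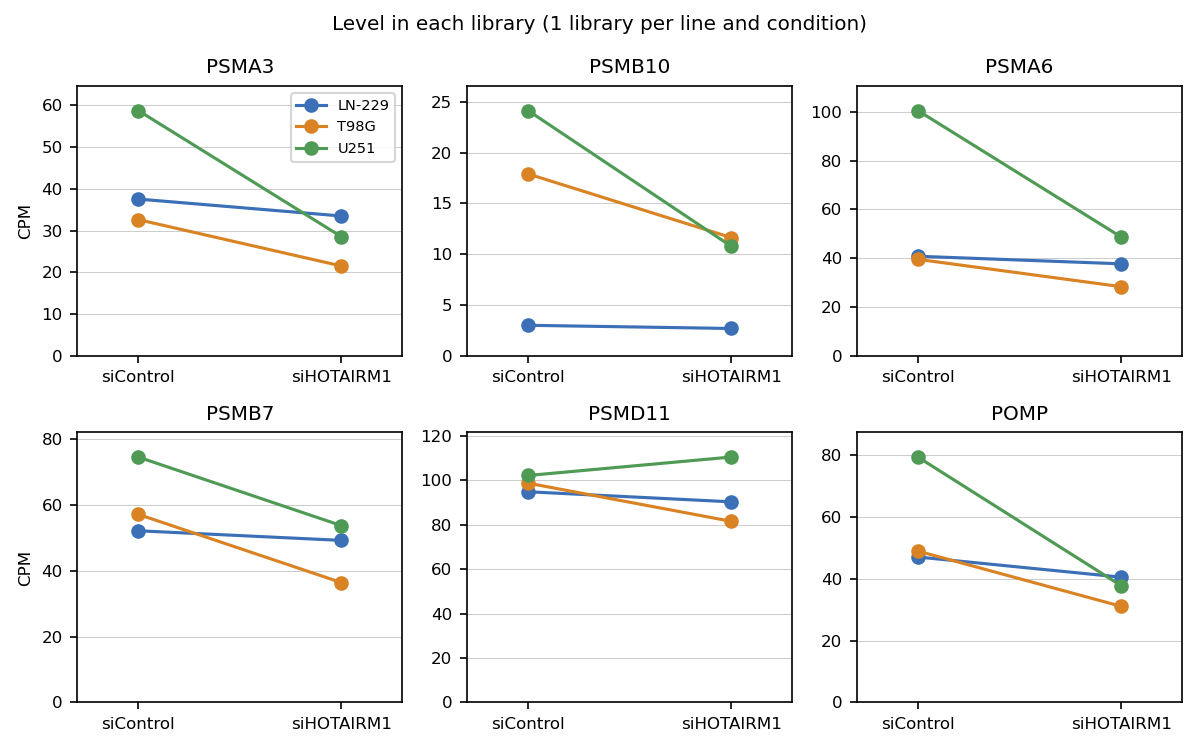
CPM (vertical axis, from 0) of 5 proteasome genes and of POMP in the siControl and siHOTAIRM1 library of each cell line (horizontal axis), with 1 line per cell line. PSMA3, PSMB10, PSMA6 and POMP show their steepest decrease in U251, PSMB7 is lower in all 3 lines, and PSMD11 is at 102 and 111 CPM in U251.

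Several other genes act with the proteasome and are not in the rule. Of 10 further proteasome proteins tested, 1 passed the test, the core maturation protein POMP. It was at 47.0 and 40.5 CPM in LN-229, 49.0 and 31.1 in T98G and 79.4 and 37.8 in U251, and its log2 change over the lines was -0.63 (SE 0.15, limma adjusted p = 0.0221). The decrease of POMP was largest in U251, as was that of PSMA3 and PSMB10, and its call was lost under the same alternatives as theirs. Of 9 regulators of proteasome genes, 0 passed the test, and NFE2L1 was at 219 and 222 CPM in LN-229, 153 and 124 in T98G and 150 and 181 in U251 (-0.01, SE 0.16, limma adjusted p = 0.990). Of 14 ubiquitin and shuttle genes 0 passed.

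Other large complexes were set beside the proteasome. The COP9 signalosome is a relative of the lid, and 1 of its 10 genes tested, COPS4, passed as lower (-0.64, SE 0.16, limma adjusted p = 0.0236). COPS4 was at 15.2 and 12.8, 17.4 and 11.9, and 36.3 and 15.7 CPM in LN-229, T98G and U251, and its call was also lost under these alternatives. The median of the complex was -0.03, -0.33 and -0.44 in LN-229, T98G and U251. The 13 genes of the translation factor eIF3 (0 passed) had medians of 0.01, -0.39 and -0.31, and the 8 genes of the chaperonin TRiC (0 passed) of -0.02, -0.47 and -0.39. The members' medians were -0.08, -0.43 and -0.32, so that decreases of this size in T98G and U251 were also seen outside the proteasome.

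The changes went with transcript length in U251. Over the 44 members, Spearman's rho of the log2 change with the median length of the protein-coding transcripts of a gene was 0.03 (LN-229), 0.31 (T98G) and 0.48 (U251), against -0.05, 0.18 and 0.25 over the 11162 genes tested that have a length. The shorter 22 members (636 to 1072 bases) had a median change of -0.43 in U251 and the longer 22 (1115 to 7250 bases) of -0.17, whereas in LN-229 the medians were -0.07 and -0.09. These correlations are across genes, which share the same libraries, and the part of length in the changes was not tested. In U251, PSMA6 (879 bases) had a log2 change of -1.03, PSMB1 (891 bases) of -0.50 and PSMA5 (2660 bases) of -0.72. These genes were picked after their values had been seen and only describe the scatter.

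**Figure D3:**
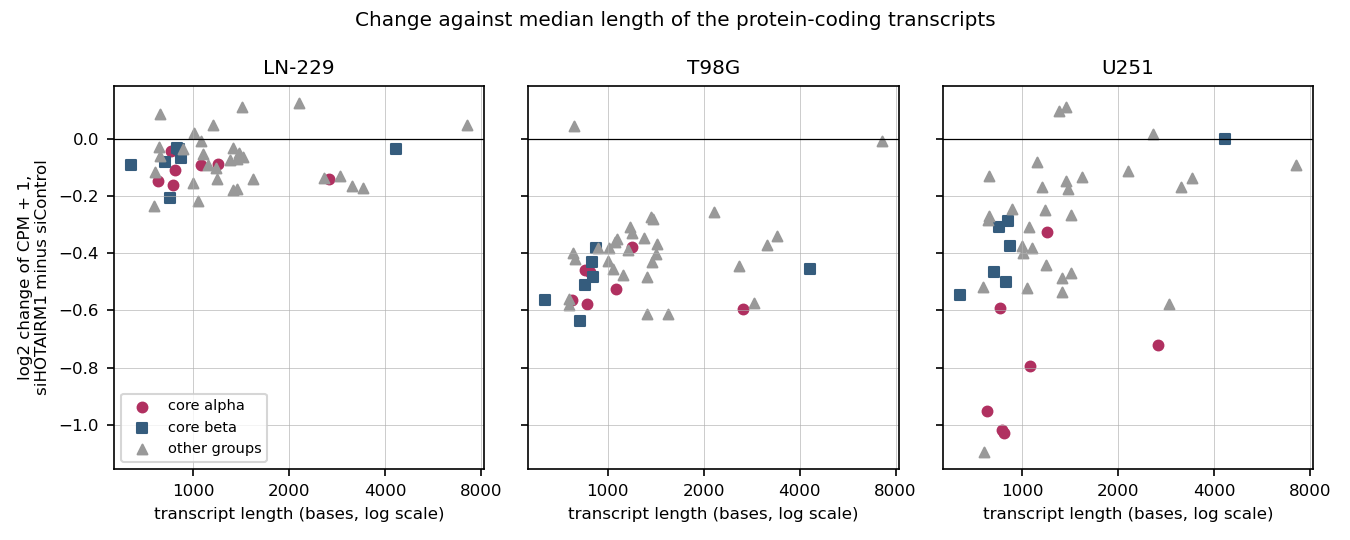
Log2 change of CPM + 1 (vertical axis) of the 44 proteasome genes against the median length of their protein-coding transcripts (horizontal axis, log scale) in the 3 cell lines. In U251 the shorter genes have the lower values (rho 0.48).

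Apart from the knock-down, the lines differed in their proteasome genes. An F-test over the 3 lines in the same model called 34 of 44 members (77.3%), against 81.0% of all genes. The members thus differed about as often as other genes. With 1 library per line and condition, no line was replicated within a condition. The siControl and siHOTAIRM1 libraries of a line stood in as its replicates. The p-values of this test and of the comparisons between lines given below carry this limit. Of the members, 20 (45.5%) were higher and 0 lower in U251 than in LN-229, against 36.7% and 23.9% of all genes. In U251 against T98G, 25 (56.8%) were higher and 1, PSMF1, lower, against 41.0% and 23.1% of all genes. In T98G against LN-229, 10 were higher and 9 lower, against 24.1% and 30.8% of all genes. In CPM as deposited, the listed genes summed to more in U251 than in the other lines. Of the listed sum, the members made up 0.526% (LN-229), 0.576% (T98G) and 0.550% (U251) with siControl. With siHOTAIRM1 they made up 0.482%, 0.501% and 0.520%. With rescaling the F-test called 25 members, and the part of the scale in the differences between lines was not tested. The highest and the lowest levels in each library are shown in the plot of levels by library.

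**Figure D4:**
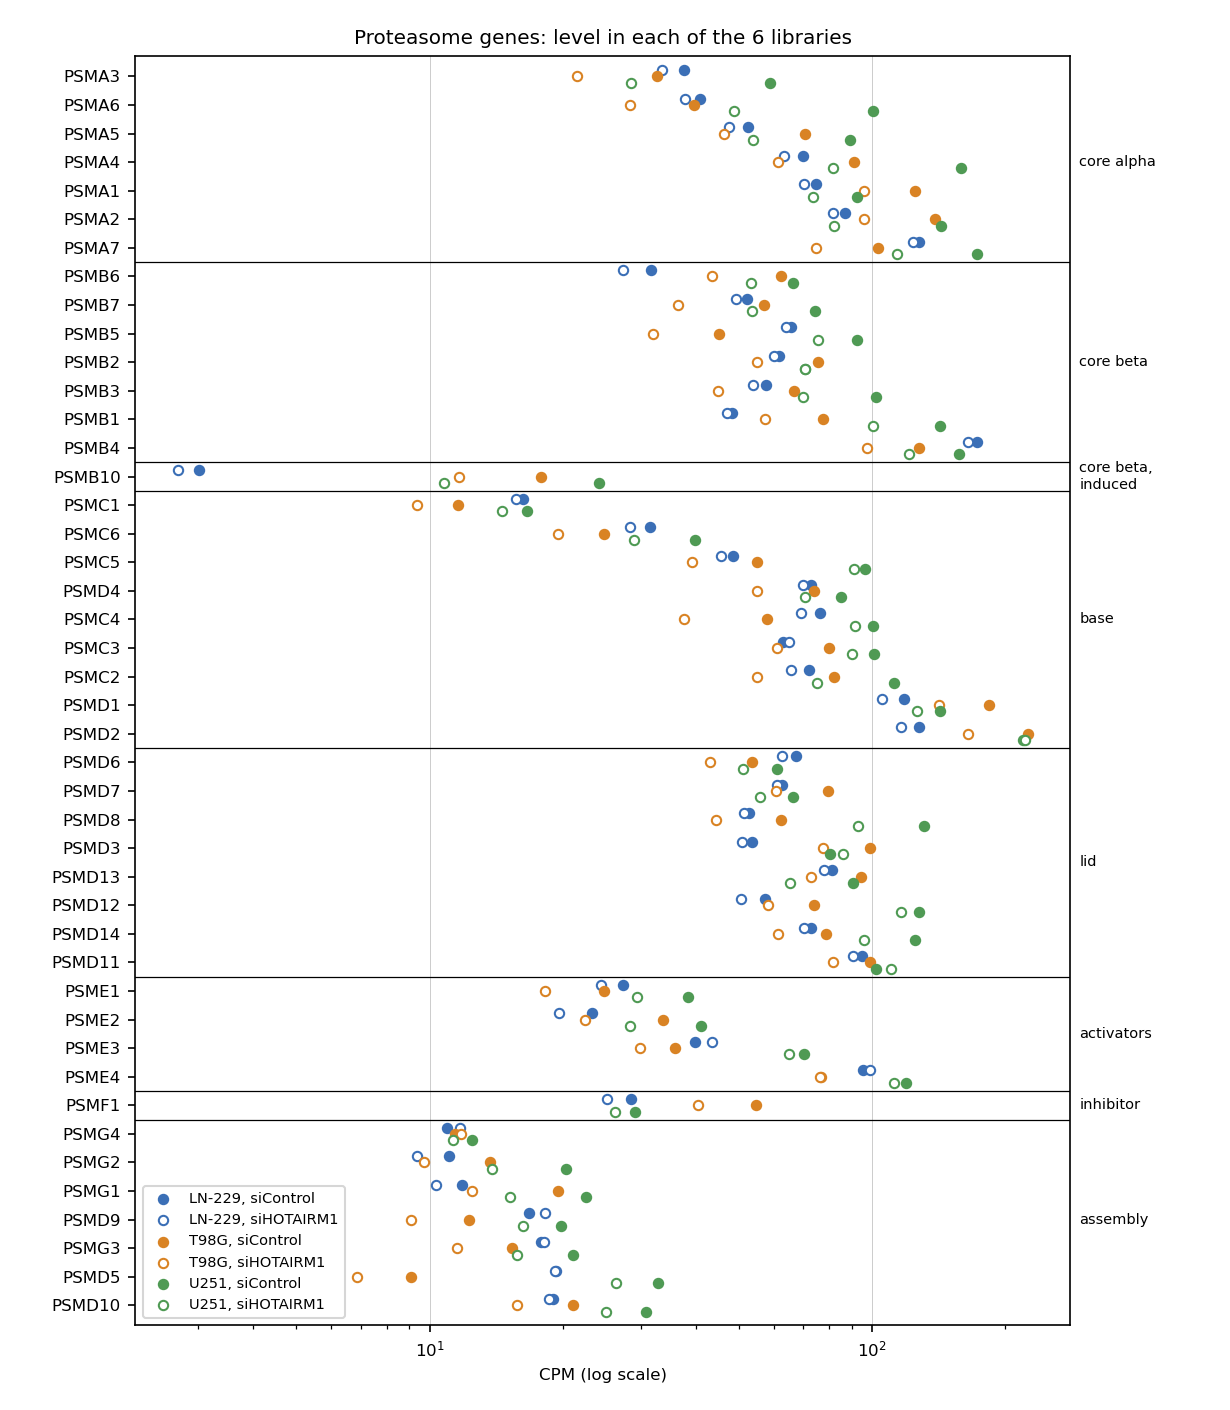
CPM (horizontal axis, log scale) of the 44 proteasome genes tested in the 6 libraries, by subcomplex. Colours mark the cell lines, filled points siControl and open points siHOTAIRM1. PSMB10 is at 2.70 to 3.01 CPM in LN-229 and at 10.8 to 24.1 CPM in the other lines, and PSMD5 is lowest in T98G.

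PSMB10 had the smallest p of all members in this test, with levels in T98G and U251 above those of LN-229 by 2.0 and 2.16 on the log2 scale (SE 0.19, limma adjusted p = 3.8e-11 and 5.7e-12). T98G and U251 differed by 0.15 (SE 0.19, limma adjusted p = 0.498). Per kb of transcript, PSMB10 made up 5.87% and 5.59% of the sum of PSMB10 and PSMB7 in LN-229 (siControl and siHOTAIRM1), 25.3% and 25.7% in T98G and 25.9% and 17.8% in U251. The share was thus lower with siHOTAIRM1 in U251 and LN-229 and higher in T98G, with 1 library each and no test.

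Of the induced subunits left out by the rule, PSMB8 had its lowest levels in LN-229, as PSMB10 did, and PSMB9 was highest in T98G. PSMB8, the partner of PSMB5, was at 12.8 and 11.4 CPM in LN-229, 38.1 and 27.1 in T98G and 41.9 and 23.9 in U251. PSMB9, the partner of PSMB6, stood apart from this order, with 5.31 and 4.23, 17.5 and 13.1, and 5.19 and 2.2 CPM. Both were lower with siHOTAIRM1 in all 3 lines without passing the test (limma adjusted p = 0.0764 and 0.0513). Of 13 antigen processing genes known to be induced by interferon, PSMB10 among them, 1 passed the test, PSMB10 itself, and their medians were -0.16, -0.39 and -0.38 in LN-229, T98G and U251.

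PSMD5, a chaperone of the base, was at 19.3 and 19.2 CPM in LN-229, 9.09 and 6.86 in T98G and 32.8 and 26.3 in U251. It was higher in U251 than in T98G by 1.77 on the log2 scale (SE 0.18, limma adjusted p = 7.1e-11), and the 3 lines did not overlap. PSMB1, a beta subunit without a protease site, was at 48.3 and 47.1, 77.4 and 57.2, and 143 and 101 CPM, and was higher in U251 than in LN-229 by 1.31 (SE 0.18, limma adjusted p = 1.5e-07). PSMD12 (57.2 and 50.7, 73.8 and 58.1, and 128 and 116 CPM) and PSMD8 (52.7 and 51.5, 62.4 and 44.3, and 131 and 93.0 CPM), both of the lid, were higher in U251 than in LN-229 by 1.17 (SE 0.18) and 1.07 (SE 0.18). Both U251 libraries were above the 4 other libraries for these 2 genes.

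The members with the largest p of this test were PSMG4, PSMD13, PSMB2, PSMD7 and PSMD11, with limma adjusted p of 0.937, 0.849, 0.542, 0.534 and 0.417. PSMG4 was within 11 to 12.5 CPM in all 6 libraries. PSMD13 of the lid was at 81.3 and 77.7 CPM in LN-229, 94.3 and 72.9 in T98G and 90.6 and 65.2 in U251, and PSMD7, also of the lid, at 62.6 and 61.1, 79.4 and 60.8, and 66.1 and 55.7 CPM. The libraries of the lines overlapped for PSMG4, PSMD13 and PSMD7, whereas for PSMD11 both U251 libraries were above the 4 others and for PSMB2 those of U251 were above those of LN-229. By subcomplex, 5 of 7 alpha, 5 of 7 beta, 8 of 9 base, 4 of 8 lid, 4 of 4 activator and 6 of 7 assembly genes differed between the lines.

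The levels of the genes were also compared with each other, as CPM per kb of the median length of the protein-coding transcripts. Within a library, the 31 constitutive subunits of core, base and lid had an SD of 0.90 to 0.96 on the log2 scale. The highest mean levels in their groups were those of PSMA7 (140.4 CPM per kb), PSMB4 (153), PSMD4 of the base (90.5) and PSMD14 of the lid (78.3). The lowest were those of PSMA5 (22.5), PSMB2 (15.2), PSMC1 (10.1) and PSMD12 (23.8). Chaperones were lower as a group, between 10.9 (PSMD9) and 27.9 (PSMD10). Among the activators PSME2 was highest (37.2) and PSME4 lowest (13.3). PSMB10 was at 15.4 and PSMF1 at 24.8 CPM per kb. With the length of the canonical transcript, an alternative chosen after seeing the data, PSMF1 was at 4.18 and PSMC1 at 3.19 CPM per kb, and PSMD4 (54) was below PSMD2 (61.5), so that levels per kb depend on the transcript that a gene uses.

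PSMA8 had 0 reads in 5 libraries, which allows up to 0.0289 to 0.0574 CPM at 3 reads, and 1 read (0.0138 CPM) in the siHOTAIRM1 library of T98G. PSMB11 had 0 reads in all 6 libraries, with the same limits. These limits cover counting error only.

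The low level of PSMC1 came with a high level of its processed pseudogene PSMC1P1, a copy on chromosome 3 (chr3:68635705-68637024, hg38, plus strand). PSMC1 was at 16.3 and 15.7 CPM in LN-229, 11.6 and 9.35 in T98G and 16.6 and 14.6 in U251, while PSMC1P1 was at 74.5 and 72.7, 53.7 and 40.3, and 75.3 and 66.1 CPM. The pseudogene thus took 81.2 to 82.3% of the sum of both in every library. In the GENCODE v44 transcripts, 1319 of the 1320 bases of PSMC1P1 were identical to PSMC1. The only difference was the substitution T885A, with PSMC1 first and positions counted from 1 at the first base of its coding sequence, which turns codon 295 of PSMC1 (TAT) into the stop codon TAA. Both sequences around it are shown, from coding base 855 to 914, with the base that differs in a capital.
PSMC1: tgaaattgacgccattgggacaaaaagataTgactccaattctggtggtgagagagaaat
PSMC1P1: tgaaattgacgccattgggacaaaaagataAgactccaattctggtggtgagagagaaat

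Reads inside the shared bases that do not cover this position have the same letters in both genes, and the authors' Expectation-Maximization step divided reads between the 2 rows. With all 13 pseudogene rows added, PSMC1 was at 91.4 and 89.0 CPM in LN-229, 65.7 and 50.0 in T98G and 92.2 and 81.1 in U251, within the range of the other ATPase genes (19.5 to 112 CPM). Its log2 change over the lines was -0.20 (SE 0.15) with the pseudogenes and -0.17 (SE 0.14) without, and neither passed the test (limma adjusted p = 0.477 and 0.550). For PSME2, 16.6 to 24.1% of the reads were on its pseudogene row, and its change was -0.44 with and without it.

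**Figure D5:**
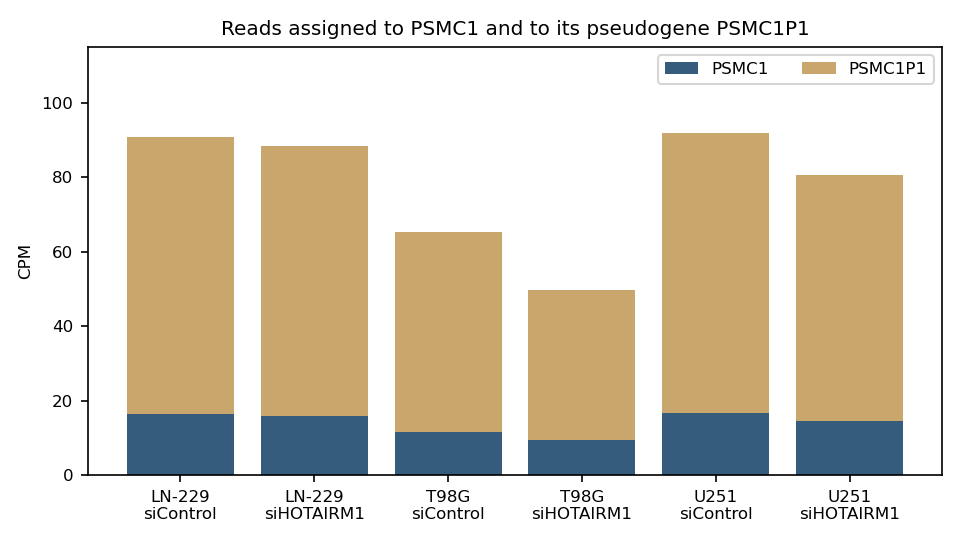
Stacked CPM (vertical axis, from 0) of PSMC1 and of its pseudogene PSMC1P1 in the 6 libraries (horizontal axis). The pseudogene holds 81.2 to 82.3% of the sum in each library, and the sum is lowest in T98G after knock-down.

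PSMA3 has an antisense neighbour, PSMA3-AS1, and the library kit does not mark the strand. PSMA3-AS1 was at 20.1 and 20.2 CPM in LN-229, 12.8 and 15.1 in T98G and 16.3 and 22 in U251 (log2 change 0.21, SE 0.14, limma adjusted p = 0.438). In the annotation used here PSMA3 (chr14:58244843-58272012, 11 exons) shares no exon bases with another gene. PSMB10 (chr16:67934506-67936864, 8 exons) shares up to 640 exon bases with the gene ENSG00000261884 on the same strand, so that its level may hold reads of that gene. Of the 44 members, 20 share exon bases with another annotated gene, and their levels may hold reads of it.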

How the data were processed

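Total RNA of 6 samples was sequenced with the TruSeq v2 kit, 1 library per cell line and condition. The authors trimmed the reads, aligned them to hg38 with STAR 2.4.1d and then Bowtie 2, and quantified Ensembl genes by Expectation-Maximization in Partek Flow. The deposited values are CPM with 0.0001 added, and 0 columns were left unused. The CPM of 1 read was read off the spacing of low values, which gave the depths. Since 67.9 to 74.1% of values were whole reads within 0.01 read, no count test was used.

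For the 14294 genes whose mean reached 1 CPM, log2(CPM + 1) was fitted by limma 3.58.1 (run in R 4.3.3) with terms for condition and cell line and a trended prior. P-values were adjusted over all of them after Benjamini and Hochberg, with 0.05 as threshold. The pairing by line came from the design, and deviations of libraries of the same line correlated with r of 0.948 to 0.967. Wilson and log-ratio intervals (95%) cover counting error only. Lengths and positions were those of GENCODE v44, which is later than the Ensembl release of the authors on the same build, and promoters those of RefSeq. Python 3.11.15, pandas 2.3.3 and scipy 1.17.1 were used, and the fit was tested on simulated data.

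The members and all gene lists were chosen with earlier results of these data known. Named genes were members past the knock-down threshold, the 2 largest rises and falls in each line, the 5 smallest and 5 largest p between lines, the highest and lowest level per kb in each group, the protease subunits, members under the filter, and genes past the threshold in other lists. Other genes with values were added after their values had been seen. Alternatives were no block, a paired statistic, centring, rescaling, no filter, a pseudocount of 0.1, pseudogenes added, each line left out, and, added after seeing the data, the canonical transcript length.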

Additional observations from a re-analysis of the deposited data

How the results depend on the processing

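The number of members lower after knock-down (2) was 0 with no cell line block, with the paired statistic of each gene alone, with median centring, with rescaling to the listed genes and with no filter, 5 with a pseudocount of 0.1, and 0 to 4 when 1 line was left out (4 without LN-229, 0 without T98G, 0 without U251). The smallest adjusted p among members ranged from 0.00595 (pseudocount of 0.1) to 0.677 (no filter), apart from the fit with no block, where no member had an unadjusted p under 0.05. Members higher were 0 throughout. Of all genes, 227 were lower and 59 higher, 26 and 15 with centring, and 12 and 7 with rescaling. The members differing between lines (34) numbered 24 with no filter to 36 with a pseudocount of 0.1. The median change over the lines (-0.28) was -0.13 with rescaling and -0.37 to -0.20 with 1 line left out. In T98G the median (-0.43) was -0.21 with rescaling and -0.23 with centring, and in U251 (-0.32) it was -0.057 with rescaling. The log2 change turned above 0 with rescaling for PSMD11 (0.071), PSMD3 (0.039), PSME3 (0.065), PSME4 (0.13) and PSMG4 (0.14), and with centring for PSMD11 (0.0015), PSME4 (0.063) and PSMG4 (0.078). With 1 line left out it ranged from -0.17 to 0.021 for PSMD11, from -0.21 to 0.010 for PSMD3, from -0.18 to 0.0059 for PSME3, from -0.048 to 0.021 for PSME4 and from -0.044 to 0.065 for PSMG4. In U251 the medians of base (0.095), lid (0.015) and activators (0.016) lay above 0 with rescaling. Apart from the construction of each alternative, the cause was not tested. Libraries were paired by cell line, which served as block in the main model, and the labels give no other replicate number. The paired calls of POMP and COPS4 were lost in the same settings as those of PSMA3 and PSMB10.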
